A study of Rattus norvegicus with 16 samples.

Results

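Bulk RNA sequencing set infarct zones that had received a stiff hydrogel against the same zone of sham-operated rat hearts, in 4 libraries labelled MI_stiff and 4 labelled Sham, which are 8 of the 16 libraries of the series. In MI_stiff the left anterior descending coronary artery, which feeds the front wall of the left ventricle, had been tied off, and a stiff hydrogel (a gel of polymer chains that hold water) had been injected into the heart muscle. The other infarcted groups were MI_soft, with ligation and a soft hydrogel, and MI, with ligation and no gel named. Sham hearts were the surgical controls, with neither ligation nor gel named. All 16 libraries carry the tissue label infarct zone, Sham included. The labels do not give the time after ligation, the strain, sex or age of the rats, the make-up or stiffness of the gels, or whether libraries of 1 group are from different rats; the p-values therefore reflect library-to-library spread, part of which may be technical. MI/R, which commonly stands for ischaemia followed by restored flow, appears in the extraction label, and the labels do not say whether the ligature was released. No group had a gel without ligation, so ligation and stiff gel cannot be told apart when MI_stiff is set against Sham. The groups with ligation alone and with the soft gel served to estimate the spread and to test where MI_stiff differed from other infarcts.

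As background, muscle cells that die after a coronary artery closes are cleared by macrophages and replaced by a scar that fibroblasts lay down as collagen and other matrix proteins. Surviving cardiomyocytes at the border commonly lower their adult contractile, calcium and fat-burning genes and take up parts of a fetal gene pattern, such as atrial natriuretic peptide. An implanted polymer is itself a foreign body, which macrophages may surround, and some of them fuse into multinucleated giant cells that share genes with osteoclasts, the bone-resorbing cells. An injected gel is also used as a mechanical support for the thinning wall.

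Total expected counts per library, a measure of depth, were 11456157 to 13025534 in MI_stiff and 13546785 to 14074104 in Sham, with 12019 to 12784 genes detected in MI_stiff and 12173 to 12437 in Sham. Mitochondrially encoded genes took 25.1% to 44.7% of the counts in MI_stiff and 35.9% to 50.5% in Sham. Of 17085 genes, 11376 passed the filter on low counts. Levels are CPM, counts scaled to library size, and are listed in the order of replicates 1 to 4. Differences are log2 of MI_stiff over Sham ± a standard error (SE) derived from edgeR's quasi-likelihood test in a fit over all 16 libraries. This SE is the size of the log2 difference divided by the square root of the test's F, and the fit itself reports none. A gene is said to have risen or fallen where the Benjamini-Hochberg adjusted p over all tested genes was under 0.05. Across genes, which cannot count as replicates, log2 CPM correlated at 0.927 to 0.957 between MI_stiff libraries, 0.839 to 0.903 between MI_stiff and Sham, and 0.972 to 0.984 between Sham libraries, so the treated infarcts varied more among themselves. Cardiomyocyte markers were present in all 8 libraries, which fits the heart label. Tnnt2 (cardiac troponin T) was at 1701 to 4111 TPM in MI_stiff and 3229 to 5653 TPM in Sham. Myh6, a cardiac myosin, was at 455 to 1166 TPM in MI_stiff and 1573 to 3347 TPM in Sham. The fibroblast marker Dcn (decorin) was at 591 to 920 TPM in MI_stiff and 314 to 363 TPM in Sham.

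The treated infarct zone had less of the cardiomyocyte programme and far more matrix, fibroblast and macrophage RNA than the sham zone. Of 11376 genes, 1450 rose (12.7%) and 960 fell (8.44%), together 21.2%. Rises were also the larger changes: 510 called genes lay over a log2 difference of 2 and 135 over 4, while 99 lay under -2 and 3 under -4. The libraries of the groups did not overlap for 38.4% of all tested genes, 19.3% with MI_stiff higher and 19.1% with MI_stiff lower. These shares are the background for every group of genes below. On the deposited TPM scale the median of all genes shifted by 0.216 towards MI_stiff, and the calls were 1845 higher and 423 lower. In a fit of only the 8 libraries of both groups they were 2367 higher and 2156 lower. Without Sham 3 the number that fell was 604. In bulk tissue fewer cells of a type and less RNA per cell cannot be told apart, which applies to every level reported here.

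The 12 largest rises among called genes with no overlap between groups and a mean of 10 CPM or more in a group included macrophage, matrix and mesothelial genes, and 3 of other kinds. Macrophage genes among them were Mmp12, the elastase of macrophages, Ocstamp and Atp6v0d2, both needed for fusion of osteoclasts, Gpnmb, a glycoprotein of lipid-laden macrophages, and Hk3, the hexokinase of myeloid cells. Spp1 (osteopontin) is made by macrophages and by matrix-forming cells, and Tnn (tenascin N) is a matrix glycoprotein. Msln (mesothelin) and Upk1b are surface proteins of mesothelium. A2m is a broad protease inhibitor, Cst6 a cysteine protease inhibitor and Rab15 a small GTPase of vesicle traffic. Cst6 had 7.96, 7.16, 17.4 and 56.8 CPM in MI_stiff, against 0, 0.189, 0 and 0 CPM in Sham, a pooled ratio of 576 (95% interval 159 to 4763) that covers counting error only. A2m had 49.3, 2.09, 48.3 and 24.2 CPM in MI_stiff, against 0.0777, 0.284, 0 and 0.158 CPM in Sham. Rab15 had 24.04, 12.47, 37.6 and 43.2 CPM in MI_stiff, against 0.0777, 0.0946, 0.233 and 0.555 CPM in Sham. The lack of overlap was a condition of the choice. MI_stiff 2 was far below the other treated libraries for A2m, whose call limma-voom did not make (adjusted p = 0.0928).

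Among the 12 largest falls, chosen by the same rule, were genes of muscle structure and signalling. Ky, a protein of the muscle Z-disc, had 4.90, 8.28, 6.54 and 9.13 CPM in MI_stiff, against 64.4, 52.3, 64.4 and 56.97 CPM in Sham (log2 difference -3.04 ± 0.59, adjusted p = 0.00139). Sntb1, a syntrophin of the dystrophin complex, had 0.842, 4.74, 4.01 and 3.90 CPM in MI_stiff, against 36.1, 16.46, 22.1 and 22.3 CPM in Sham (log2 difference -2.84 ± 0.81, adjusted p = 0.018), and lost its call without MI_stiff 1 (adjusted p = 0.0536) or Sham 1 (0.0576). Nhlrc1 (malin), a ubiquitin ligase that acts on glycogen metabolism, had 1.07, 2.25, 1.97 and 1.95 CPM in MI_stiff, against 12.1, 11.54, 11.8 and 12.9 CPM in Sham (log2 difference -2.73 ± 0.41, adjusted p = 0.000145). Trim7, a ligase that binds glycogenin, the primer of glycogen, had 0.306, 2.98, 4.36 and 1.54 CPM in MI_stiff, against 18.1, 14.47, 15.1 and 16.01 CPM in Sham (log2 difference -2.79 ± 0.80, adjusted p = 0.0189), and its adjusted p was 0.0564 without MI_stiff 4. Lrrc4b, a synaptic adhesion protein, Gpr22, an orphan receptor enriched in heart, Slc22a3, an organic cation transporter, Auts2 and Mtus2 had log2 differences of -2.63 ± 0.52, -2.59 ± 0.55, -2.71 ± 0.71, -3.10 ± 0.80 and -3.22 ± 0.88. Rcor2l1 and another locus had the same counts throughout, so the reads of these genes cannot be assigned with certainty. By the rule of choice, every MI_stiff library lay under every Sham library in each of these genes.

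Many contractile and electrical genes of cardiomyocytes fell and none of those listed rose. Of 14 tested contractile genes 10 fell, of 16 calcium handling genes 10, and of 15 ion channel and gap junction genes 7, with median log2 differences of -1.10, -1.42 and -1.77, against 0.0171 over all genes. Myh6, the fast adult myosin heavy chain of rat ventricle, had 3361, 3271, 6661 and 4808 CPM in MI_stiff, against 22755, 14375, 24345 and 21220.1 CPM in Sham (log2 difference -2.19 ± 0.41, adjusted p = 0.00096). Troponin I (Tnni3), troponin C (Tnnc1) and tropomyosin (Tpm1), which make contraction depend on calcium, had log2 differences of -1.40 ± 0.25, -1.19 ± 0.24 and -1.12 ± 0.21. Every MI_stiff library lay under every Sham library for these genes, and MI_stiff 2 was the lowest in the last 3, with 2075, 1099.5, 1988 and 1915 CPM of Tnni3 in MI_stiff. Atp2a2, the pump that returns calcium to the sarcoplasmic reticulum, had 5879, 5502, 4872 and 5249 CPM in MI_stiff, against 15318, 16050.0, 15115 and 13356 CPM in Sham (log2 difference -1.48 ± 0.25, adjusted p = 0.000389). Its inhibitor Pln (phospholamban) had 1136, 779, 1014 and 674 CPM in MI_stiff, against 2499, 2449, 2509.9 and 2332 CPM in Sham (log2 difference -1.44 ± 0.21, adjusted p = 0.000143). Pump and inhibitor were thus both lower in all 4 treated infarcts. Hrc, a calcium-binding protein of the reticulum, and Asph, whose products include junctional proteins of the reticulum, had log2 differences of -1.91 ± 0.29 and -1.20 ± 0.21. Ryr2, the calcium release channel, had 125, 319.9, 360.4 and 218 CPM in MI_stiff, against 974, 715, 714 and 929 CPM in Sham (log2 difference -1.70 ± 0.57, adjusted p = 0.0419), and its adjusted p passed 0.05 when any 1 of the 8 libraries was left out (0.0513 to 0.121).

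Channels that shape the action potential showed the deepest median fall of these groups. Scn4b, a sodium channel subunit, had 22.4, 50.3, 32.6 and 41.3 CPM in MI_stiff, against 147, 268, 202 and 175 CPM in Sham (log2 difference -2.43 ± 0.29, adjusted p = 1.82e-05). Gja1 (connexin 43), the gap junction protein of ventricular muscle, had 245, 287, 200.005 and 233 CPM in MI_stiff, against 824, 852, 804 and 807 CPM in Sham (log2 difference -1.77 ± 0.31, adjusted p = 0.000524). Kcnj11, the pore of the ATP-sensitive potassium channel, had 8.497, 11.5001, 11.9 and 10.4 CPM in MI_stiff, against 47.6, 48.2, 55.6 and 43.3 CPM in Sham (log2 difference -2.20 ± 0.42, adjusted p = 0.00112). None of these groups overlapped, and the Sham levels of Gja1 were nearly equal. Kcnh2, the delayed rectifier channel, had -1.66 ± 0.34, and Kcnj3, an inward rectifier subunit of atrial type, -2.23 ± 0.58. MI_stiff 1 had the lowest level of Scn4b, Kcnj11 and Kcnj3, and the lowest mean log2 CPM over the channel list (3.12, against 4.13 to 4.23 in MI_stiff 2 to 4 and 5.18 to 5.39 in Sham). Of 17 beta-adrenergic and protein kinase A genes 6 fell, among them Adcy5, the main adenylyl cyclase of heart muscle, with 64.8, 101, 80.6 and 98.46 CPM in MI_stiff, against 343, 293, 293 and 293 CPM in Sham (log2 difference -1.82 ± 0.23, adjusted p = 3.63e-05), and Adrb1, the cardiac beta receptor, with -2.18 ± 0.57. Only 3 of the 17 fell without MI_stiff 1, 3 or 4 or Sham 1 or 4.

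Cardiac transcription factors were lower as well, with 8 of 17 falling and none rising. Gata4, a factor for cardiac gene expression, had 67.7, 95.3, 58.46 and 55.7 CPM in MI_stiff, against 185, 163, 201 and 170.4 CPM in Sham (log2 difference -1.38 ± 0.24, adjusted p = 0.000622). Ppargc1a, the coactivator of mitochondrial genes, had 2.22, 1.69, 4.08 and 4.16 CPM in MI_stiff, against 17.2, 12.01, 10.48 and 19.7 CPM in Sham (log2 difference -2.28 ± 0.56, adjusted p = 0.00789). Mef2d and Irx4, a factor of ventricular identity, had -1.62 ± 0.35 and -1.20 ± 0.26, that of Irx4 not called on the TPM scale (adjusted p = 0.104). None of these groups overlapped. The count was 4 without MI_stiff 1 and 5 without Sham 1, 3 or 4, and 15 in the fit of only the 8 libraries.

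**Figure D1:**
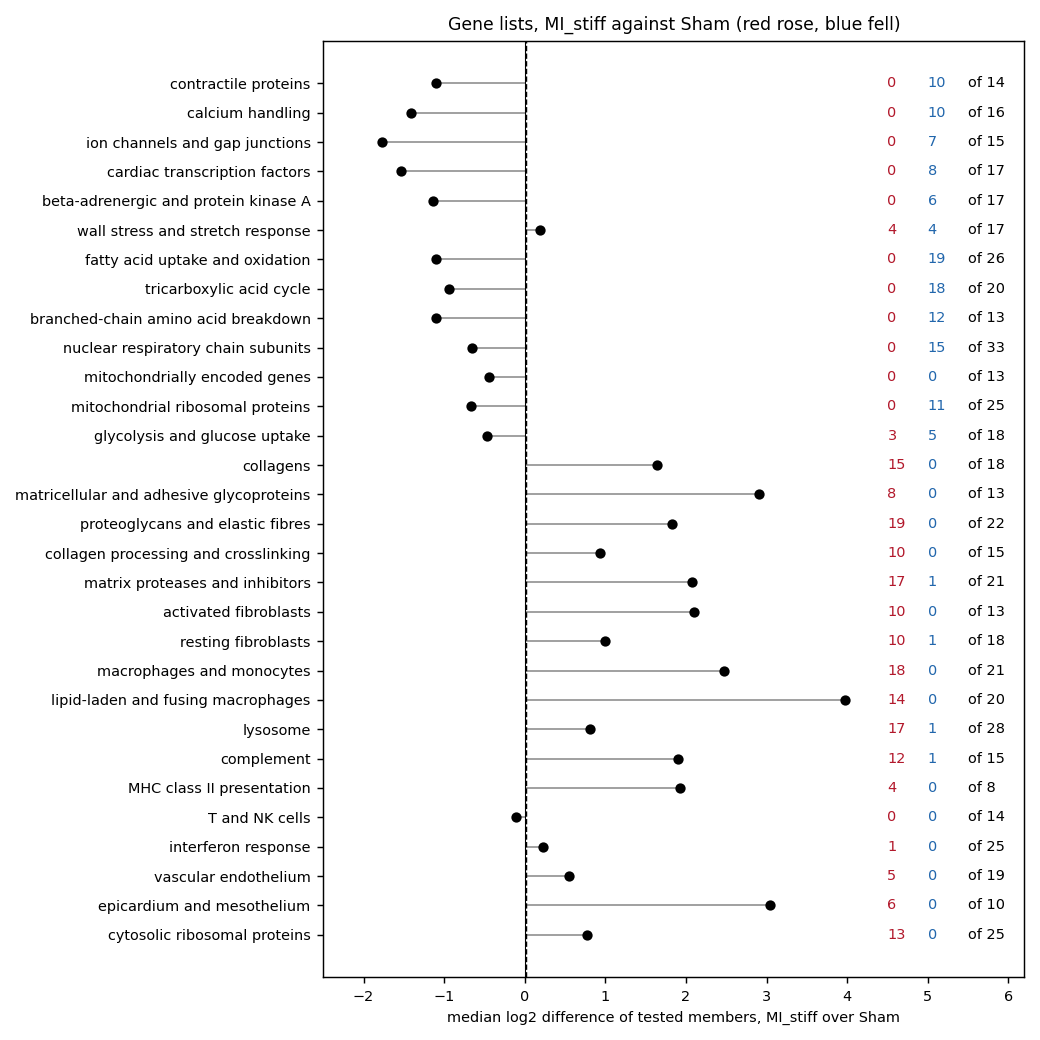
Median log2 difference of MI_stiff over Sham (horizontal) of the tested members of 30 gene lists (rows), with the number of members that rose (red) and fell (blue) of those tested printed at the right; the dashed line marks the median of all genes. Matrix, macrophage and mesothelial lists lie to the right and cardiomyocyte and metabolic lists to the left, with no member of the contractile, channel or fatty acid lists among the rises.

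Genes that a stretched or failing ventricle raises were split. Nppa, atrial natriuretic peptide, a hormone that promotes salt loss and that adult ventricles barely make, had 1743, 3458, 1135 and 2078 CPM in MI_stiff, against 57.4, 229, 128 and 29.2 CPM in Sham (log2 difference 4.25 ± 0.55, adjusted p = 4.08e-05). Nppb, the brain-type peptide that is raised by wall stress, had 229.9, 265, 156 and 279 CPM in MI_stiff, against 206, 195, 199 and 104 CPM in Sham and did not pass the test (log2 difference 0.40 ± 0.25, adjusted p = 0.283). The groups were far apart for Nppa and overlapped for Nppb, where Sham 4 alone was low. Myh7, the slow fetal myosin, had 2516, 4460.3, 2297 and 5592 CPM in MI_stiff, against 3100.1, 3209.9, 4204 and 4152 CPM in Sham (log2 difference 0.019 ± 0.31, adjusted p = 0.974), and Acta1, the skeletal actin of fetal heart, had 1719, 2804, 2067 and 2419.7 CPM in MI_stiff, against 2133, 2731, 1992 and 1393 CPM in Sham (log2 difference 0.13 ± 0.29, adjusted p = 0.803). Both overlapped between groups, and the sign for Myh7 was negative without MI_stiff 2 or 4 or Sham 1 or 2. Ankrd23, a stretch-responsive partner of titin, had 116, 227, 137 and 114 CPM in MI_stiff, against 32.96, 36.99, 36.4 and 20.52 CPM in Sham (log2 difference 2.23 ± 0.34, adjusted p = 0.000206). Fhl2, a LIM protein of the sarcomere that restrains growth signals, went the other way with 234, 236, 236 and 312 CPM in MI_stiff, against 817, 628, 1046 and 709 CPM in Sham (log2 difference -1.65 ± 0.21, adjusted p = 3.22e-05). Nrap, an actin-anchoring protein of the intercalated disc, had -1.09 ± 0.25, again not called on the TPM scale (adjusted p = 0.128). Over the wall stress list 4 of 17 genes rose and 4 fell. Trh, thyrotropin-releasing hormone, had 34.98, 11.5001, 27.3 and 21.02 CPM in MI_stiff, against 0.389, 0.473, 0.621 and 0.317 CPM in Sham (log2 difference 5.69 ± 0.47, adjusted p = 6.63e-07), and Agtr1a, the angiotensin receptor, had 2.09 ± 0.36. In the hormone and natriuretic list 4 of 16 genes rose and none fell, with a median log2 difference of 0.105.

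Most listed enzymes that burn fat, acetyl groups and branched-chain amino acids in mitochondria fell. Of 26 fatty acid genes 19 fell, of 20 tricarboxylic acid cycle genes 18, of 13 branched-chain amino acid genes 12 and of 33 nuclear-encoded respiratory chain genes 15, and no gene of these lists rose. Acsl1, which activates fatty acids in heart muscle, had 286, 344, 306 and 316 CPM in MI_stiff, against 1294, 1250.2, 1296 and 1173 CPM in Sham (log2 difference -2.001 ± 0.29, adjusted p = 0.000101). Cpt1b, the gate for fatty acids into mitochondria, had 185, 207, 248 and 239.8 CPM in MI_stiff, against 706, 543, 812 and 673 CPM in Sham (log2 difference -1.64 ± 0.23, adjusted p = 0.000104). Cs (citrate synthase), the entry step of the cycle, had 145, 266, 224 and 256 CPM in MI_stiff, against 721, 600.1, 739 and 699 CPM in Sham (log2 difference -1.63 ± 0.29, adjusted p = 0.000689). The groups were separated for all of these, with the MI_stiff levels of Acsl1 close together. Hadh and Etfdh of fat oxidation, Sdha and Suclg1 of the cycle and Mccc2, Ivd and Auh of leucine breakdown had log2 differences between -1.62 ± 0.24 (Hadh) and -1.05 ± 0.20 (Auh), again with no overlap. Respiratory chain subunits fell less, with a median of -0.66; Ndufs1 of complex I had 563, 525, 419 and 557 CPM in MI_stiff, against 1357, 1365, 1296 and 1287 CPM in Sham (log2 difference -1.36 ± 0.23, adjusted p = 0.000455), and Atp5f1a of ATP synthase and Uqcrfs1 of complex III had -1.07 ± 0.21 and -0.94 ± 0.21. Of the 13 mitochondrially encoded genes 0 passed edgeR's test (median -0.44); 2 had an unadjusted p under 0.05, and DESeq2 called 1 and limma-voom 0. Mitochondrial ribosomal proteins followed the nuclear genes, with 11 of 25 lower, for example Mrps2 with -1.13 ± 0.22. On the TPM scale, with its shift of 0.216 towards MI_stiff, the numbers lower were 15 of the fatty acid, 6 of the cycle, 4 of the branched-chain, 4 of the respiratory chain and 0 of the mitochondrial ribosomal genes. The calls of Auh, Atp5f1a, Uqcrfs1 and Mrps2 did not hold there (adjusted p = 0.0591 to 0.0990). The respiratory chain count was also 9 without MI_stiff 2.

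Some genes of fuel choice did not follow. Pdk4, the kinase that holds pyruvate out of the cycle, had 74.02, 163, 135 and 119 CPM in MI_stiff, against 121, 93.4, 86.8 and 123 CPM in Sham (log2 difference 0.21 ± 0.80, adjusted p = 0.886), with the groups overlapping. Angptl4, a lipase inhibitor induced by fatty acids and hypoxia, had 59.2, 48.3, 40.7 and 48.96 CPM in MI_stiff, against 10.03, 3.59, 9.24 and 6.18 CPM in Sham (log2 difference 2.76 ± 0.37, adjusted p = 6.04e-05). It was higher in all 4 libraries than in every Sham library, whereas Ucp3, an uncoupling protein that fatty acids also induce, fell with 8.73, 15.2, 11.1 and 18.9 CPM in MI_stiff, against 32.4, 31.502, 30.7 and 29.4 CPM in Sham (log2 difference -1.20 ± 0.27, adjusted p = 0.00366), though not on the TPM scale (adjusted p = 0.0696). Glucose carriers diverged: Slc2a4 (GLUT4), the insulin-regulated carrier of muscle, had 149.8, 189.6, 192 and 193 CPM in MI_stiff, against 426, 468, 488 and 404 CPM in Sham (log2 difference -1.30 ± 0.24, adjusted p = 0.000982). Slc2a1 (GLUT1), the carrier of many other cells, had 47.4, 25.6, 64.7 and 48.02 CPM in MI_stiff, against 26.8, 16.8, 28.3 and 20.8 CPM in Sham (log2 difference 1.001 ± 0.27, adjusted p = 0.0128), with MI_stiff 2 inside the Sham range and an adjusted p of 0.0537 without MI_stiff 3. Slc16a3, a lactate exporter of glycolytic cells, had 20.51, 3.22, 20.4 and 20.4 CPM in MI_stiff, against 0.700, 0.284, 1.01 and 0.951 CPM in Sham (log2 difference 4.42 ± 0.80, adjusted p = 0.000776). Ckm, muscle creatine kinase, had 1239, 888, 1068 and 1507 CPM in MI_stiff, against 2866, 2538, 4484 and 2672 CPM in Sham (log2 difference -1.42 ± 0.31, adjusted p = 0.00348). The groups did not overlap for Slc2a4, Slc16a3 or Ckm. Over the glycolysis list 3 of 18 genes rose and 5 fell, with 1 falling without MI_stiff 2 or Sham 3 and 2 without MI_stiff 3.

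The matrix of the treated zone was rich in collagen, fibronectin and matricellular transcripts. Of 18 collagen genes 15 rose and none fell, against 12.7% of all genes rising, and their summed TPM was 3061 to 5523 in MI_stiff and 509.9 to 909 in Sham. Of 22 proteoglycan and elastic fibre genes 19 rose, of 15 collagen processing genes 10, and of 13 matricellular and adhesive glycoproteins 8, with none falling. Col1a1, the main chain of scar collagen, had 3439.7, 2686, 2518 and 4092 CPM in MI_stiff, against 529.7, 349, 443 and 513 CPM in Sham (log2 difference 2.79 ± 0.36, adjusted p = 3.74e-05). Col3a1, the more pliable fibrillar collagen, had 8174, 7248, 5330.2 and 8272 CPM in MI_stiff, against 1451, 1035, 1084 and 1576 CPM in Sham (log2 difference 2.496 ± 0.24, adjusted p = 2.76e-06). Fn1 (fibronectin), the early adhesive scaffold, had 1282, 982, 1551 and 1653 CPM in MI_stiff, against 66.6, 58.9, 61.9 and 79.2 CPM in Sham (log2 difference 4.36 ± 0.29, adjusted p = 1.22e-07). The lowest MI_stiff library was several-fold over the highest Sham library for each. Postn (periostin), which aids collagen crosslinking, had 613, 266, 339 and 432 CPM in MI_stiff, against 15.7, 9.84, 12.5002 and 9.83 CPM in Sham (log2 difference 5.10 ± 0.41, adjusted p = 5.08e-07). Ltbp2, a microfibril protein, had 164, 170.3, 219.7 and 190.5 CPM in MI_stiff, against 3.03, 4.07, 8.70 and 3.72 CPM in Sham (log2 difference 5.25 ± 0.36, adjusted p = 1.22e-07). Ccn5, a matricellular protein that opposes growth and fibrosis, had 108, 55.6, 63.46 and 97.4 CPM in MI_stiff, against 0.466, 1.42, 1.09 and 1.43 CPM in Sham (log2 difference 6.21 ± 0.43, adjusted p = 1.22e-07), and its relative Ccn2, which promotes fibrosis, had 747, 535, 359 and 359.6 CPM in MI_stiff, against 86.7, 79.1, 67.8 and 34.2 CPM in Sham (log2 difference 2.90 ± 0.44, adjusted p = 0.000186). Both CCN genes were thus higher in every MI_stiff library. Mfap5, Fbln1 and Fbln2 of elastic fibres had 3.33 ± 0.37, 1.82 ± 0.20 and 1.96 ± 0.26.

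Many collagen maturation and turnover genes rose. Plod2, the lysyl hydroxylase of stable scar crosslinks, had 172, 107, 147 and 151 CPM in MI_stiff, against 23.4, 27.9, 19.95 and 23.46 CPM in Sham (log2 difference 2.61 ± 0.33, adjusted p = 3.05e-05). Pcolce and Bmp1, which trim procollagen, had 2.29 ± 0.31 and 1.56 ± 0.18. Lox, the lysyl oxidase that forms the crosslinks, had 2.37, 6.43, 6.26 and 5.71 CPM in MI_stiff, against 1.94, 1.42, 3.34 and 4.28 CPM in Sham and did not pass the test (log2 difference 0.92 ± 0.77, adjusted p = 0.44), with overlapping groups. Of 21 proteases and inhibitors 17 rose and 1 fell. Timp1, an inhibitor of metalloproteinases, had 202, 64.497, 144 and 103 CPM in MI_stiff, against 7.62, 5.11, 9.47 and 6.97 CPM in Sham (log2 difference 4.13 ± 0.42, adjusted p = 3.64e-06). Mmp2, the gelatinase of fibroblasts, had 537, 542, 399 and 634 CPM in MI_stiff, against 144, 129, 160.5 and 147 CPM in Sham (log2 difference 1.86 ± 0.23, adjusted p = 3.11e-05), and Serpinf1 and Mmp19 had 2.60 ± 0.31 and 2.65 ± 0.30. All of these were separated between groups. Tnn had 103, 8.77, 38.8 and 70.7 CPM in MI_stiff, against 0, 0, 0 and 0 CPM in Sham, at least 912-fold higher, where the bound takes 3 counts over the Sham group. Tnn led a cartilage and bone matrix list of which 7 of 11 rose, but 4 without MI_stiff 1 or Sham 1, 2 or 3 and 4 in the fit of only the 8 libraries. Runx2, the bone-forming factor, had 12.9, 3.38, 7.18 and 5.64 CPM in MI_stiff, against 2.10, 1.04, 0.932 and 0.951 CPM in Sham (log2 difference 2.52 ± 0.4999, adjusted p = 0.00157), and Acan (aggrecan) had 21.1, 0.161, 6.68 and 3.63 CPM in MI_stiff, against 0.233, 0, 0 and 0 CPM in Sham, with MI_stiff 2 inside the Sham range and a pooled ratio of 128 (95% interval 43.4 to 621) that covers counting error only; limma-voom did not call it (adjusted p = 0.137), nor did limma on TPM (0.145).

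Of 13 activated fibroblast genes 10 rose and of 18 resting fibroblast genes 10, with 1 of the resting list falling. Sfrp2, a secreted Wnt modulator of scar fibroblasts, had 85.7, 157, 31.9 and 107 CPM in MI_stiff, against 3.03, 2.18, 3.49 and 0.555 CPM in Sham (log2 difference 5.35 ± 0.51, adjusted p = 2.45e-06). Thbs4, a thrombospondin of muscle and scar matrix, had 58.48, 50.02, 83.6 and 104 CPM in MI_stiff, against 2.33, 2.27, 4.97 and 0.713 CPM in Sham (log2 difference 4.84 ± 0.45, adjusted p = 2.38e-06). Pi16 and Scara5, markers of adventitial fibroblasts, had 94, 116, 131 and 162 CPM in MI_stiff, against 13.2, 12.2, 10.3 and 7.77 CPM in Sham (log2 difference 3.53 ± 0.32, adjusted p = 1.94e-06) and 163, 322, 98.8 and 153 CPM in MI_stiff, against 23.9, 19.9, 19.1 and 18.46 CPM in Sham (log2 difference 3.18 ± 0.31, adjusted p = 2.92e-06). Every MI_stiff library was above every Sham library in these genes, and MI_stiff 2 was the highest for Scara5 and Sfrp2 while low for macrophage genes described below. TGF-beta, the main profibrotic signal, was represented by 10 rises of 23 genes, among them Tgfb3 (1.53 ± 0.27) and the follistatin relatives Fstl1 (1.99 ± 0.31) and Fstl3 (1.58 ± 0.25), which bind activins or related ligands. Of 10 genes of the insulin-like growth factor axis 6 rose. Igf1, a growth factor for muscle and fibroblasts, had 53.2, 32.9, 29.1 and 32.04 CPM in MI_stiff, against 12.05, 8.51, 6.68 and 8.16 CPM in Sham (log2 difference 2.05 ± 0.31, adjusted p = 0.000153), and its binding proteins Igfbp4 and Igfbp6 had 2.67 ± 0.42 and 3.46 ± 0.42. None of these overlapped with Sham. Targets of the stretch-sensing factors YAP and TAZ moved less evenly: 5 of 16 rose and 1 fell, and 2 rose without MI_stiff 3 or Sham 1, 3 or 4 and 3 without MI_stiff 4 or Sham 2. Of 19 integrin and adhesion genes 5 rose and 1 fell, with 13 not passing the test; those that rose included Itga11, a collagen receptor of fibroblasts (3.02 ± 0.49), Itga8 (2.63 ± 0.41) and vimentin, Vim (1.97 ± 0.27).

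**Figure D2:**
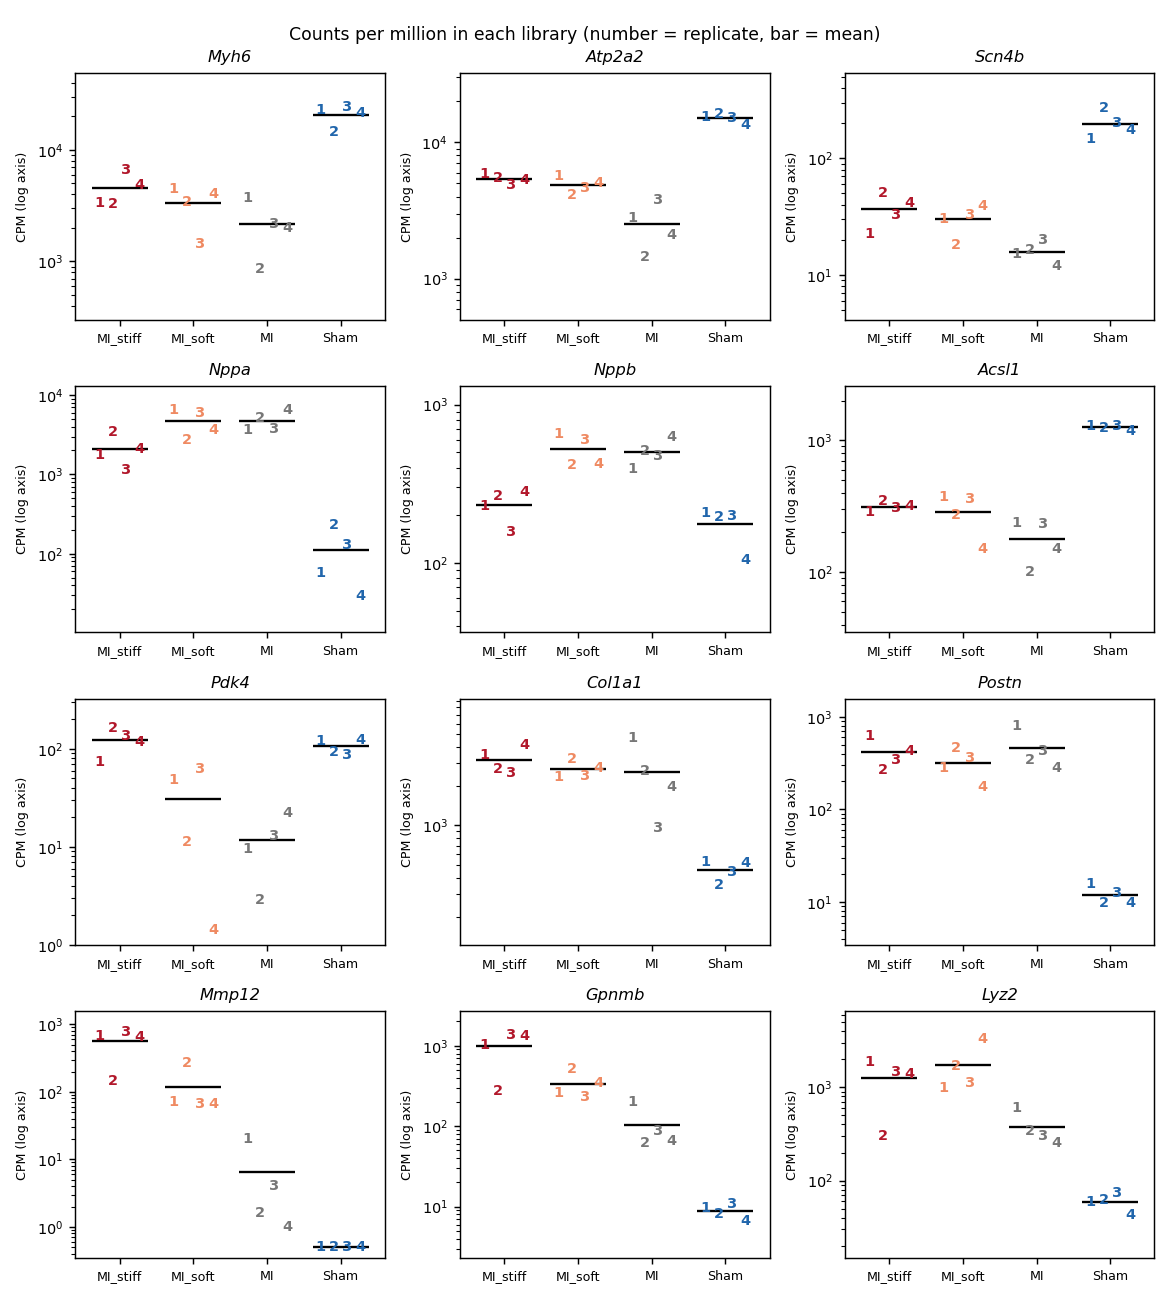
CPM on a log axis of 12 genes in every library of the series, with groups in the order MI_stiff, MI_soft, MI and Sham; points are libraries numbered by replicate and black bars are group means, and 0 CPM is drawn at the bottom edge. MI_stiff and Sham do not overlap for 10 of the genes, do overlap for Nppb and Pdk4, and MI_stiff 2 lies under the other MI_stiff libraries for Mmp12, Gpnmb and Lyz2.

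Many macrophage genes were far above Sham. Of 21 macrophage and monocyte genes 18 rose, of 20 genes of lipid-laden and fusing macrophages 14, and of 28 lysosomal genes 17, with 1 lysosomal gene falling. Summed TPM of the general macrophage list was 717 to 3102 in MI_stiff and 165 to 232 in Sham. The promoters of Gpnmb, Ctsk (cathepsin K, the collagen-cutting protease of osteoclasts) and Mmp12 are shown because these genes rose together and their promoters share a short letter run. That sharing was thus a condition of the choice. They are RefSeq sequences of assembly GRCr8 (another build than the rn7 of the counts), each 250 bases before to 50 after the gene's start, on the plus strand, 5′ to 3′, with TCANGTG (the core of the element that MITF and TFEB family factors bind) and TGANTCA (the AP-1 element) in capitals on either strand.
Gpnmb, chr4:79340878-79341177: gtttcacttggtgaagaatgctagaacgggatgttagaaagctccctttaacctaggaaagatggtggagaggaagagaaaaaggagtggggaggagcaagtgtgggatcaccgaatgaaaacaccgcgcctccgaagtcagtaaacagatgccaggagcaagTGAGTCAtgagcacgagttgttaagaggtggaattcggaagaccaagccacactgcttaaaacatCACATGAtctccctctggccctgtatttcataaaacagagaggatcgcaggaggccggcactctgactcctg
Ctsk, chr2:185747298-185747597: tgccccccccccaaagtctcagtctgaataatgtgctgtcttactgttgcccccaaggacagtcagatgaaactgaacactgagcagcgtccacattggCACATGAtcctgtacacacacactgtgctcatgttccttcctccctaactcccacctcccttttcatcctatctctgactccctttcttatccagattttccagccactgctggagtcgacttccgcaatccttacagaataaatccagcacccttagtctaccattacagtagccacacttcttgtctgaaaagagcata
Mmp12, chr8:12866402-12866701: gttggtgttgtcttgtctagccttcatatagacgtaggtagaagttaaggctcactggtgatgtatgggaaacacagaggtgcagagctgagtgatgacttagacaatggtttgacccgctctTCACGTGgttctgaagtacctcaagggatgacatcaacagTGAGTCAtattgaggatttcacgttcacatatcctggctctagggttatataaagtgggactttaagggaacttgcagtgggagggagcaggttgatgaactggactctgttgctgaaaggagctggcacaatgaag
TCANGTG was in 7 of the 12 lipid-laden and fusing macrophage genes that had a listed promoter (of 20 tested) and in 10 of 22 lysosomal genes (of 28). A gene was counted where any of its promoters had the run. The share was 13.4% of the 8824 tested genes with a promoter and 12.9% of the 1070 genes that rose and had one. Counted by promoter, it was 13.4% of all 33469 of this length. Among general macrophage genes TCANGTG was in 2 of 14. TGANTCA was in 4 of the 12 and 2 of the 22, and the promoter of Ctsk had none. TGANTCA was in 7.33% of all promoters, and in 5.45% of the tested genes and 8.97% of the genes that rose, among those with a promoter. Ctsd and Ctsk are in both lists. A letter match is a description and not a binding site.

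Mmp12 had 665, 146, 785 and 646 CPM in MI_stiff, against 0, 0, 0 and 0 CPM in Sham, at least 9345-fold higher with the Sham bound of 3 counts over the group. Gpnmb had 1017, 273, 1343 and 1337 CPM in MI_stiff, against 9.56, 8.14, 10.9 and 6.66 CPM in Sham (log2 difference 6.81 ± 0.56, adjusted p = 6.25e-07). Ctsk had 342, 123, 181 and 338 CPM in MI_stiff, against 8.47, 11.9, 12.03 and 10.9 CPM in Sham (log2 difference 4.51 ± 0.32, adjusted p = 1.22e-07). Spp1 had 408, 95.1, 600.2 and 292 CPM in MI_stiff, against 1.71, 0.851, 0.932 and 1.03 CPM in Sham (log2 difference 8.25 ± 0.69, adjusted p = 7.69e-07). For each of these genes MI_stiff 2 was the lowest treated library and still well above every Sham library. Genes of cell fusion followed: Ocstamp had 12.6, 0.483, 23.1 and 15.2 CPM in MI_stiff, against 0, 0, 0 and 0 CPM in Sham, at least 217-fold higher, and Atp6v0d2, a proton pump subunit of osteoclasts, had 16.3, 3.30, 13.6 and 13.4 CPM in MI_stiff, against 0, 0, 0 and 0 CPM in Sham, at least 193-fold higher. Ocstamp was almost missing from MI_stiff 2. Lyz2 (lysozyme), a product of macrophages and other myeloid cells, had 1846, 297, 1459 and 1388 CPM in MI_stiff, against 59.3, 62.7, 73.7 and 42.9 CPM in Sham (log2 difference 4.39 ± 0.52, adjusted p = 1.82e-05). Cd68, a lysosomal membrane marker, had 97.98, 24.1, 116 and 64.4 CPM in MI_stiff, against 3.89, 3.41, 3.42 and 5.23 CPM in Sham (log2 difference 4.24 ± 0.57, adjusted p = 5.78e-05), and Cd14, a receptor for bacterial lipid, had 2.71 ± 0.36. Hk3 had 38.1, 9.49, 68.9 and 59.2 CPM in MI_stiff, against 0.466, 0.473, 0.233 and 0.238 CPM in Sham (log2 difference 6.94 ± 0.79, adjusted p = 1.38e-05). Il1rn, the antagonist of interleukin-1, had 142, 10.8, 114 and 122 CPM in MI_stiff, against 1.09, 0.851, 1.16 and 0.792 CPM in Sham (log2 difference 6.63 ± 0.73, adjusted p = 9.61e-06). The step between MI_stiff 2 and the other 3 treated libraries was thus seen in each of these genes, Ctsk least clearly. The median log2 difference of the lipid-laden list was 3.97, or 3.97 with genes absent from Sham at their bound. Mean log2 CPM of the general macrophage list was 4.20 in MI_stiff 2, 5.36 to 5.51 in the other MI_stiff libraries and 2.58 to 2.75 in Sham, and that of the lipid-laden list 5.31 in MI_stiff 2, 6.60 to 6.77 in the other MI_stiff libraries and 2.96 to 3.06 in Sham. Without MI_stiff 2, 19 of 21 and 14 of 20 rose, and the log2 difference of Gpnmb was 7.14.

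**Figure D3:**
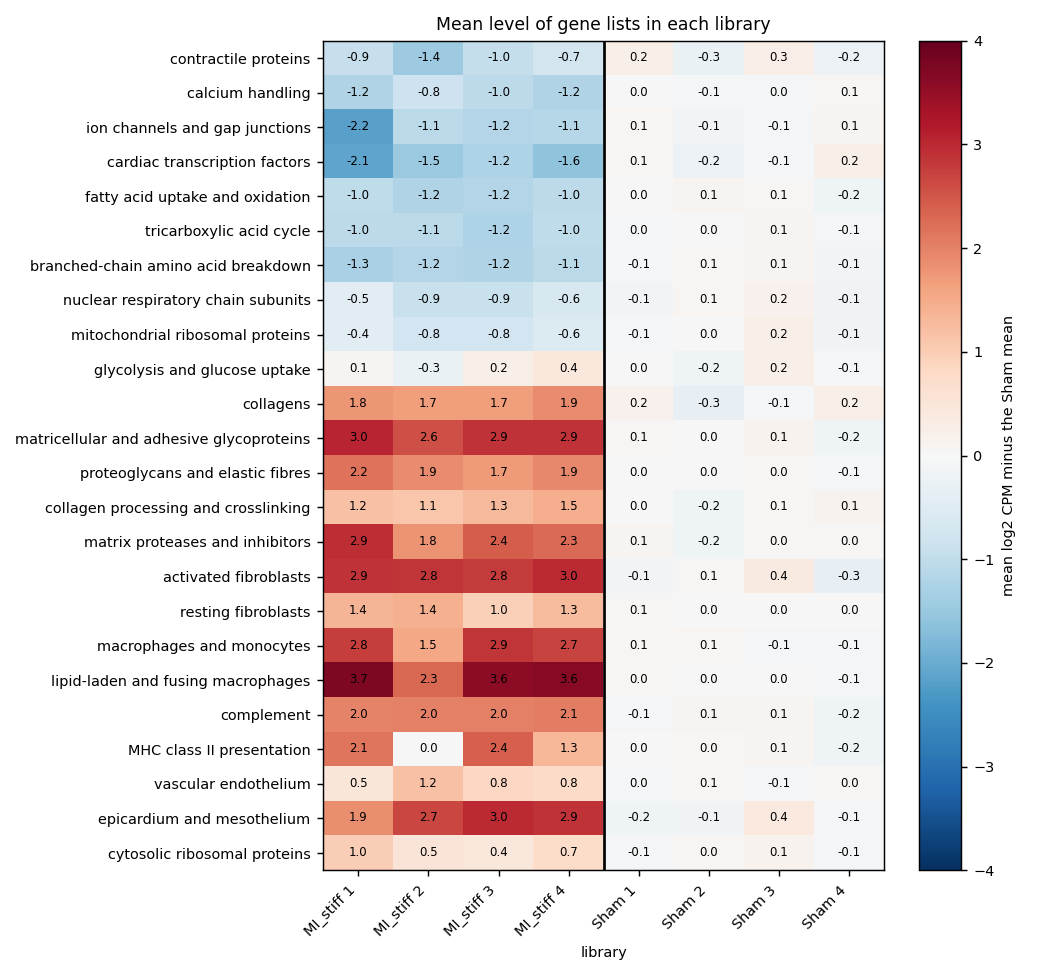
Mean log2 CPM of the members of 24 gene lists in each library (columns: MI_stiff 1 to 4, then Sham 1 to 4), as the difference from the mean of the Sham libraries, with red higher and blue lower. MI_stiff 2 is paler than the other treated libraries for macrophage and MHC class II lists and MI_stiff 1 is the bluest for ion channels, while collagens (1.67 to 1.88) and fatty acid genes (-1.20 to -1.002) are alike in all 4.

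Ctsl and Ctss, cathepsins of lysosomes, had 1.64 ± 0.22 and 3.37 ± 0.35, and Gusb, a lysosomal glycosidase, had 18.1, 17.3, 21.9 and 34.99 CPM in MI_stiff, against 3.498, 4.64, 3.96 and 5.78 CPM in Sham (log2 difference 2.37 ± 0.27, adjusted p = 1.44e-05). Of 8 MHC class II genes 4 rose, but unevenly: RT1-Da had 262, 48.3, 264 and 136 CPM in MI_stiff, against 37.3, 39.8, 38.6 and 30.3 CPM in Sham (log2 difference 2.28 ± 0.46, adjusted p = 0.00182), so that MI_stiff 2 stood just above the highest Sham library, and Cd74, the invariant chain, had 852, 161, 851 and 439.8 CPM in MI_stiff, against 327, 303, 372 and 288 CPM in Sham (log2 difference 0.84 ± 0.47, adjusted p = 0.223), with MI_stiff 2 under every Sham library. Complement, by contrast, did not dip in MI_stiff 2. Of 15 complement genes 12 rose and 1 fell. C4b, a central component, had 907, 1922, 604 and 1005 CPM in MI_stiff, against 24.3, 14.6, 15.99 and 9.19 CPM in Sham (log2 difference 6.11 ± 0.57, adjusted p = 2.42e-06). C6, of the membrane attack complex, had 17.1, 108, 20.6 and 32.7 CPM in MI_stiff, against 0.0777, 1.04, 0.854 and 0.238 CPM in Sham (log2 difference 6.34 ± 0.85, adjusted p = 5.6e-05), and C1s, a protease of the first component, had 1.77 ± 0.18. MI_stiff 2 was the highest library for C4b and C6. Hmox1 (heme oxygenase 1), which breaks down heme, had 128, 83.6, 93.99 and 84.2 CPM in MI_stiff, against 9.41, 7.57, 8.46 and 6.02 CPM in Sham (log2 difference 3.63 ± 0.31, adjusted p = 7.69e-07), while Cp (ceruloplasmin), Ftl1 (ferritin light chain) and Slc11a1, an iron exporter of phagosomes, had 2.98 ± 0.23, 1.70 ± 0.46 and 4.12 ± 0.70. These are 4 of 6 rises among 15 heme and iron genes, of which 1 fell and 8 did not pass the test (median log2 difference -0.015), and 4 to 6 rose when 1 library was left out. Of 19 tested cytokine and chemokine genes 10 rose and 1 fell. Csf1, the growth factor of macrophages, had 57.49, 66.99, 67.7 and 60.04 CPM in MI_stiff, against 23.6, 24.7, 25.4 and 22.7 CPM in Sham (log2 difference 1.39 ± 0.23, adjusted p = 0.00044), and Il33, Ccl7 and Cxcl16 had 2.58 ± 0.36, 2.66 ± 0.41 and 1.92 ± 0.27.

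Lymphocyte, neutrophil and interferon genes gave few or no calls. Of 14 T and natural killer cell genes and 4 neutrophil genes 0 passed edgeR's test. Of the T and natural killer cell genes 0 had an unadjusted p under 0.05, and DESeq2 and limma-voom each called 0; of the neutrophil genes 1 had such a p, and the same tools called 0 each. The fit of only the 8 libraries called 1 gene of each list, and limma on TPM called 1 neutrophil gene and 0 of the T and natural killer cell genes. The neutrophil genes S100a8, S100a9 and Csf3r were at 3.63 CPM or less in all 8 libraries. Lcn2, the other tested member, had log2 differences of 0.72 to 1.11 when 1 library was left out, never called there. On the TPM scale its log2 difference was 1.11 (adjusted p = 0.0231 by limma). Summed TPM of the neutrophil list was 24.1 to 74.2 in MI_stiff and 14.8 to 25.9 in Sham. Of 14 B cell and antibody genes 3 rose, all of them chemokines that attract lymphocytes. Cxcl13, the attractant of B cells, had 48.6, 56.1, 50.7 and 66.7 CPM in MI_stiff, against 2.02, 6.43, 3.65 and 3.72 CPM in Sham (log2 difference 3.82 ± 0.65, adjusted p = 0.000455). Ccl19 had 9.26, 10.6, 12.03 and 4.97 CPM in MI_stiff, against 0.777, 1.51, 0.854 and 1.27 CPM in Sham (log2 difference 3.06 ± 0.505, adjusted p = 0.000356) and Ccl21 55.96, 54.9, 32.7 and 64.9 CPM in MI_stiff, against 24.6, 17.03, 21.7 and 23.2 CPM in Sham (log2 difference 1.27 ± 0.38, adjusted p = 0.0247). The groups were apart for all 3, but Ccl21 lost its call without MI_stiff 1, 2 or 4 or Sham 2 or 3 (adjusted p = 0.0507 to 0.0848). Of 25 interferon-response genes 1 rose, the immunoproteasome subunit Psmb8 (1.14 ± 0.32), which lost its call without MI_stiff 4 or Sham 4 (adjusted p = 0.0526 and 0.0504). Hba-a1, haemoglobin of red blood cells, had 528, 103, 351 and 190.5 CPM in MI_stiff, against 609, 633, 992 and 884 CPM in Sham (log2 difference -1.41 ± 0.45, adjusted p = 0.0333), and its adjusted p passed 0.05 in 6 of 8 fits that left out 1 library (0.0517 to 0.0936 in those).

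Of 19 vascular endothelial genes 5 rose, none fell and 14 did not pass the test, with a median log2 difference of 0.54; 8 rose on the TPM scale and 9 in the fit of only the 8 libraries. Plvap, of the diaphragms of leaky vessels, had 24.3, 137, 19.6 and 31.1 CPM in MI_stiff, against 2.41, 3.88, 2.95 and 2.93 CPM in Sham (log2 difference 4.12 ± 0.75, adjusted p = 0.000821), and without MI_stiff 2 its log2 difference was 3.05. Selp (P-selectin), which catches leukocytes, had 6.12, 35.55, 4.36 and 12.4 CPM in MI_stiff, against 1.01, 0.851, 0.854 and 0.792 CPM in Sham (log2 difference 4.04 ± 0.68, adjusted p = 0.000409), or 3.11 without MI_stiff 2. Vcam1 and Icam1, leukocyte adhesion molecules, had 25.8, 70.53, 34.05 and 39.7 CPM in MI_stiff, against 8.78, 8.99, 7.38 and 8.48 CPM in Sham (log2 difference 2.34 ± 0.34, adjusted p = 0.000116) and 1.76 ± 0.22. All 4 were above Sham in every treated library, and MI_stiff 2 was far above the others for Plvap and Selp. Of 23 angiogenic factor and apelin genes 4 rose, 4 fell and 15 did not pass the test, with a median log2 difference of 0.02, and 2 fell without Sham 2 or 3. Angpt2, which loosens vessels, and Ptn, a growth factor for vessels and nerves, had 1.57 ± 0.27 and 2.36 ± 0.38, while Fgf9 fell (-2.18 ± 0.53). Lyve1, shared by lymphatics and resident macrophages, had 62.2, 69.2, 42.4 and 51.1 CPM in MI_stiff, against 10.9, 14.001, 10.6 and 15.2 CPM in Sham (log2 difference 2.15 ± 0.23, adjusted p = 7.75e-06), and Pdpn had 1.44 ± 0.31. In the lymphatic list 4 of 9 genes rose and none fell, and 2 to 4 rose when 1 library was left out. Tagln, of smooth muscle and myofibroblasts, had 96.99, 81.4, 86.95 and 109.9 CPM in MI_stiff, against 25.96, 14.47, 38.4 and 22.7 CPM in Sham (log2 difference 1.88 ± 0.41, adjusted p = 0.0033), and Actg2 and Pdgfrb had 2.99 ± 0.53 and 1.11 ± 0.20, but Smtn, of contractile smooth muscle, fell (-1.09 ± 0.23). Over the smooth muscle list 3 of 16 genes rose and 3 fell, with 1 falling without MI_stiff 3 or Sham 1.

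Of 10 epicardial and mesothelial genes 6 rose, none fell and 4 did not pass the test. Msln had 12.8, 49.4, 63.9 and 70.52 CPM in MI_stiff, against 0.311, 0.0946, 0.543 and 0 CPM in Sham (log2 difference 7.60 ± 0.91, adjusted p = 2.17e-05). Upk1b had 1.68, 12.9, 17.7 and 12.96 CPM in MI_stiff, against 0, 0, 0.233 and 0 CPM in Sham, with 3 Sham counts in all and a pooled ratio of 187 (95% interval 63.7 to 909). Krt8 and Krt19, keratins of simple epithelia, rose too. Krt8 had 1.45, 3.06, 6.40 and 5.10 CPM in MI_stiff, against 0.0777, 0.0946, 0.0776 and 0.158 CPM in Sham (log2 difference 5.17 ± 0.65, adjusted p = 3.37e-05). Krt19 had 0.765, 1.37, 9.99 and 5.04 CPM in MI_stiff, against 0.0777, 0, 0.0776 and 0.0792 CPM in Sham, a pooled ratio of 72.9 (95% interval 24.6 to 356) over 3 Sham counts. Each treated library exceeded each Sham library, with MI_stiff 1 lowest in all 4 genes. Markers of nerve support cells and fat gave few calls, against 12.7% of all genes rising. Of 13 tested Schwann cell and nerve genes 2 rose and 0 fell (median log2 difference 0.037), S100b and Pmp22 with 3.83 ± 0.62 and 1.79 ± 0.21. Of 11 adipocyte genes 2 rose and 0 fell, Cfd and Scd with 2.61 ± 0.57 and 5.41 ± 1.23. The median of the adipocyte list was 2.61, with 3 members at 0 counts in all Sham libraries. The call of Scd was not made by limma-voom (adjusted p = 0.208). Myl1, a light chain of fast skeletal and of embryonic heart muscle, had 13.4, 17.1, 4.43 and 17.3 CPM in MI_stiff, against 1.09, 1.04, 0.776 and 0.317 CPM in Sham (log2 difference 4.01 ± 0.75, adjusted p = 0.00102), the only rise among 6 skeletal muscle genes, of which 1 fell, and it was not called by limma-voom (adjusted p = 0.0950).

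Stress, translation and growth genes rose in part. Median log2 differences were 1.14 for immediate early genes and 0.449 for integrated and endoplasmic reticulum stress. They were 0.773 for cytosolic ribosomal proteins and 0.669 for the cell cycle. Of 16 immediate early genes 7 rose, and 4 without MI_stiff 1 or Sham 1 or 4. Atf3, a stress-induced repressor, had 84.4, 37.9, 69.01 and 85.2 CPM in MI_stiff, against 10.6, 5.87, 6.37 and 3.49 CPM in Sham (log2 difference 3.39 ± 0.33, adjusted p = 3.11e-06), and Egr2, Maff and Myc had 3.26 ± 0.42, 1.68 ± 0.27 and 1.46 ± 0.38, that of Myc not called by limma-voom (adjusted p = 0.0759). In the list of integrated and endoplasmic reticulum stress 5 of 23 genes rose, 1 fell and 17 did not pass the test. Between 2 and 5 rose when 1 library was left out. Mthfd2, the mitochondrial folate enzyme of growing cells, had 40.6, 18.9, 13.9996 and 13.2 CPM in MI_stiff, against 5.44, 3.22, 3.34 and 3.33 CPM in Sham (log2 difference 2.496 ± 0.39, adjusted p = 0.000227). The groups were apart for Atf3 and Mthfd2. Of 25 cytosolic ribosomal proteins 13 rose and none fell. Rpl3, of the large subunit, had 755, 594, 374 and 592 CPM in MI_stiff, against 118, 141, 121 and 115 CPM in Sham (log2 difference 2.23 ± 0.28, adjusted p = 3.38e-05), a larger change than that of Rpl4 (0.85 ± 0.22) or Rps3 (1.15 ± 0.28). MI_stiff 3 had the lowest treated level of all 3, and the number that rose was 4 without MI_stiff 1, 6 without Sham 1 and 8 without MI_stiff 4 or Sham 3. Of 24 cell cycle genes 4 rose. Mcm6, of the DNA replication helicase, had 20.9, 14.6, 19.4 and 18.6 CPM in MI_stiff, against 7.85, 10.03, 4.503 and 6.10 CPM in Sham (log2 difference 1.37 ± 0.30, adjusted p = 0.00349), and Cdkn2b, a brake on the cycle, had 3.67, 2.17, 2.11 and 3.02 CPM in MI_stiff, against 0.0777, 0.0946, 0 and 0.0792 CPM in Sham with a pooled ratio of 44.8 (95% interval 15.04 to 219.7). Mki67, the proliferation marker, had 21.4, 13.1, 20.2 and 16.3 CPM in MI_stiff, against 6.61, 16.46, 5.98 and 9.59 CPM in Sham (log2 difference 0.88 ± 0.41, adjusted p = 0.139), with Sham 2 inside the treated range; it did pass without Sham 2 or in the fit of only the 8 libraries (adjusted p = 0.0309 for the 8 libraries). The number of cell cycle genes that rose was 2 without MI_stiff 1 or 2 or Sham 1, 3 or 4, and 8 in the fit of only the 8 libraries. On the TPM scale, with its shift of 0.216 towards MI_stiff, 11 of the 24 rose. Mki67 passed there too (log2 difference 0.659, adjusted p = 0.0457 by limma). Of the cold-inducible RNA-binding genes Rbm3 rose (1.57 ± 0.28), and Cirbp had 0.37 ± 0.23 with an adjusted p of 0.281.

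Clock genes set MI_stiff 3 apart from the other treated libraries. Arntl (Bmal1), the activator of the clock, had 54.3, 48.2, 11.8 and 40.6 CPM in MI_stiff, against 49.8, 55.2, 52.8 and 48.3 CPM in Sham, and Dbp, a clock output gene that peaks in another phase, had 5.51, 6.03, 36.2 and 4.4997 CPM in MI_stiff, against 9.87, 10.2, 10.2 and 9.43 CPM in Sham. MI_stiff 3 was the lowest library for Arntl and the highest for Dbp, and neither gene passed the test (adjusted p = 0.456 and 0.693). The log2 difference of Dbp was 0.40 ± 0.61 with all libraries and -0.89 (adjusted p = 0.225) without MI_stiff 3. Per2, a repressor of the clock, rose with 45.4, 37.6, 87.8 and 35.8 CPM in MI_stiff, against 13.99, 12.8, 11.8 and 12.2 CPM in Sham (log2 difference 2.02 ± 0.34, adjusted p = 0.000409), and Per1 with 1.25 ± 0.30. The libraries' hours of collection are not given, and their part in these values was not tested.

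Set directly against MI, the untreated infarct, MI_stiff differed in 1.19% of genes, 56 higher (0.492%) and 79 lower (0.694%). Some macrophage genes were among those with the smallest p-values. Gpnmb had 1017, 273, 1343 and 1337 CPM in MI_stiff, against 198, 61.49, 87.53 and 65.51 CPM in MI (log2 difference 3.27 ± 0.47, adjusted p = 0.00676). Mmp12 had 665, 146, 785 and 646 CPM in MI_stiff, against 19.8, 1.59, 4.03 and 1.002 CPM in MI (log2 difference 6.37 ± 0.94, adjusted p = 0.00955). Hmox1 had 128, 83.6, 93.99 and 84.2 CPM in MI_stiff, against 35.04, 30.1, 14.4 and 24.97 CPM in MI (log2 difference 1.90 ± 0.28, adjusted p = 0.00676). MI_stiff was the higher group in every library for Hmox1 and Mmp12, and the same held for Gpnmb. Hk3, Il1rn and Smpdl3a, a lysosomal lipase relative, were higher by 4.09 ± 0.65, 3.79 ± 0.62 and 2.15 ± 0.34, and Ptcd3, a protein of mitochondrial translation, and Atp6v1b2, a proton pump subunit, by 1.82 ± 0.26 and 1.20 ± 0.18. Lower in MI_stiff were Ccl21, with 55.96, 54.9, 32.7 and 64.9 CPM in MI_stiff, against 515, 624, 184 and 224 CPM in MI (log2 difference -2.89 ± 0.40, adjusted p = 0.00676), and Mmrn1, a lymphatic glycoprotein, with 18.1, 26.2, 13.9 and 11.7 CPM in MI_stiff, against 49.2, 83.2, 71.6 and 98.3 CPM in MI (log2 difference -2.11 ± 0.33, adjusted p = 0.00955). Neither of these overlapped, and libraries did not overlap for 7.88% of all genes in this comparison (3.97% with MI_stiff higher, 3.9% lower). Il1rn, where MI_stiff 2 lay inside the MI range, lost its call without MI 4 (adjusted p = 0.0540). Ptcd3 and Atp6v1b2 were also above Sham (0.97 ± 0.26 and 0.56 ± 0.17), calls lost in 1 and 5 of 8 fits without 1 library. Of the lists above, lipid-laden and fusing macrophages had 6 of 20 members higher than in MI and lysosomes 3 of 28, and smooth muscle had 4 of 16 lower and cytosolic ribosomal proteins 4 of 25. Of the 21 general macrophage and monocyte genes 0 passed edgeR's test against MI in either direction, with a median log2 difference of 0.598.

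Genes of other lists also differed from MI. Among them were 1 of 17 wall stress genes (Nppb, lower) and 1 of 16 calcium handling genes (Atp2a2, higher). Lower were 3 of 16 immediate early genes (1 was higher), 2 of 9 lymphatic and 2 of 6 skeletal muscle genes. Lower too were 2 each of the proteoglycan, activated fibroblast, resting fibroblast and TGF-beta lists (22, 13, 18 and 23 genes tested). For matricellular genes 2 of 13 were lower and 1 higher. Higher were 2 of 21 proteases and inhibitors and 2 of 18 glycolysis genes. Nppb had 229.9, 265, 156 and 279 CPM in MI_stiff, against 391, 511, 475 and 625 CPM in MI (log2 difference -1.11 ± 0.25, adjusted p = 0.0423). Atp2a2 was higher than in MI by 1.10 ± 0.24 (adjusted p = 0.0391) and Scn4b by 1.21 ± 0.28 (adjusted p = 0.0432), although both were under Sham. Tagln and Tgfb3 were lower than in MI by -1.85 ± 0.41 and -1.18 ± 0.27 (adjusted p = 0.0387 and 0.0391). Thbs4 had -2.25 ± 0.39 (adjusted p = 0.0142). Pdk4, at 123 ± 37.4 CPM in MI_stiff and 11.9 ± 8.03 CPM in MI (SD, n = 4 each), did not pass the test (log2 difference 3.37 ± 0.89, adjusted p = 0.0674). The calls of Atp2a2, Nppb, Tagln and Tgfb3 were each lost in 6 of 8 fits that left out 1 library of either group, that of Scn4b in 5 and that of Thbs4 in 1. Over all genes, leaving out 1 library gave 1253 calls without MI 1, 15 without MI 2, 11 without MI 4, and 56, 47, 21 and 26 without MI_stiff 1, 2, 3 and 4, and the fit of only the 8 libraries of MI_stiff and MI gave 13. MI 2, 3 and 4 detected 10470 to 11283 genes, fewer than any MI_stiff library. Without these 3 and MI_soft 4, with MI 1 as the only MI library and assumed to vary like the others, the macrophage calls against MI were lost: the log2 difference was 2.33 (adjusted p = 0.156) for Gpnmb, 4.83 (0.173) for Mmp12, 3.07 (0.158) for Hk3 and 3.03 (0.230) for Il1rn.

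**Figure D4:**
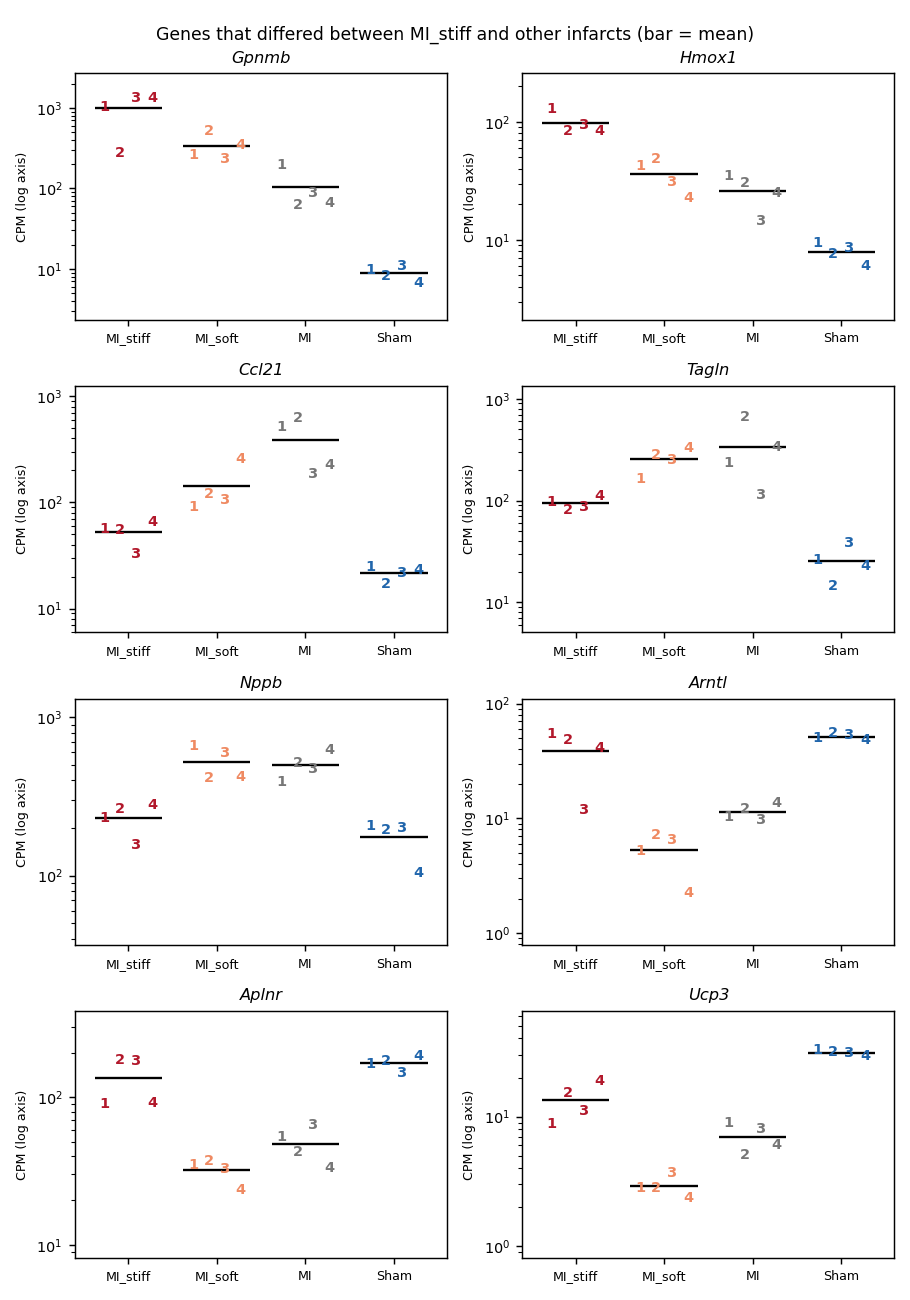
CPM on a log axis of 8 genes in the libraries of MI_stiff, MI_soft, MI and Sham (left to right), chosen because MI_stiff differed from MI or from MI_soft by edgeR's test; points are libraries numbered by replicate and black bars are group means. Gpnmb and Hmox1 are highest in MI_stiff, Ccl21 and Tagln are lower in MI_stiff than in MI, and Arntl, Aplnr and Ucp3 are lowest in MI_soft.

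Set against MI_soft, MI_stiff differed in 0.0967% of genes, 7 higher (0.0615%) and 4 lower (0.0352%). Ucp3 had 8.73, 15.2, 11.1 and 18.9 CPM in MI_stiff, against 2.84, 2.81, 3.70 and 2.34 CPM in MI_soft (log2 difference 2.20 ± 0.28, adjusted p = 0.00273). Aplnr, the apelin receptor of endothelium, had 89.48, 179, 177 and 91.9 CPM in MI_stiff, against 34.9, 36.7, 32.8 and 23.4 CPM in MI_soft (log2 difference 2.07 ± 0.27, adjusted p = 0.00273). Neither overlapped, against 11.3% of all genes without overlap (4.47% with MI_stiff higher, 6.87% lower), and Aplnr in MI_stiff did not pass the test against Sham (log2 difference -0.35 ± 0.26, adjusted p = 0.372). Angptl4 and Atf3 were higher by 1.98 ± 0.36 and 1.83 ± 0.31, and Fmo5, a monooxygenase, by 1.69 ± 0.30. Clock genes made up 3 of the 11, with Arntl at 54.3, 48.2, 11.8 and 40.6 CPM in MI_stiff, against 5.15, 7.15, 6.48 and 2.26 CPM in MI_soft (log2 difference 2.87 ± 0.39, adjusted p = 0.00336), and Npas2 higher and Dbp lower by 2.82 ± 0.42 and -4.11 ± 0.67. Lower too were Ccl19 (-2.64 ± 0.45), Nupr1, a stress gene (-1.81 ± 0.33), and the antibody gene Ighe, with 4.90, 10.6, 11.47 and 6.45 CPM in MI_stiff, against 4273, 166, 731 and 2309 CPM in MI_soft. Ighe was very uneven among the MI_soft libraries. The macrophage genes Gpnmb and Mmp12 did not pass this test (adjusted p = 0.138 and 0.213), although DESeq2 called Gpnmb (adjusted p = 0.0148). Leaving out 1 library gave 7, 17, 6 and 5 calls without MI_soft 1, 2, 3 and 4, and 4 without MI_stiff 4; Angptl4, Atf3, Fmo5 and Nupr1 were lost in 7 of the 8 fits of this kind, Ccl19 in 5 and Dbp in 4.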

How the data were processed

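Bulk RNA was sequenced from rat hearts, 4 libraries in each of 4 groups. The authors deposited 2 tables of all 16 libraries, 1 with expected counts and 1 with TPM per gene; STAR 2.7.3a, RSEM 1.3.1 and genome build rn7 are named in the submitters' processing notes, with no annotation or strand setting named there. Expected counts, deposited by the authors, were rounded to whole numbers. Genes were filtered with filterByExpr, scaled by TMM and tested with edgeR 4.0.16 (robust quasi-likelihood, R 4.3.3), all 16 libraries in 1 fit with a term per group. Alternatives used DESeq2 1.42.0, limma 3.58.1 and the deposited TPM as log2(TPM + 1), which understates changes of low genes. The members and gene lists were chosen with earlier results of these data known. Genes were named by a rule: the 12 largest rises and falls, up to 4 called members per list, anchor genes, and the 10 smallest adjusted p against MI and MI_soft. A few genes that the rule names are not reported here. Promoter letters come from a RefSeq table. The labels name no pairing by replicate number, so a replicate block was fitted only as an alternative. Counting intervals cover counting error only, and 483 tested genes had counts identical to another gene's.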

Additional observations from a re-analysis of the deposited data

Results flagged for a closer look

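In 33 of 476 groups of 4 values, 1 library lay far from the other 3 by Dixon's ratio, where chance gives about 1 in 20 groups. Over gene lists, as mean log2 CPM, this was so for ion channels and gap junctions in MI_stiff 1 (3.12, against 4.13 to 4.23 in the other 3), proteoglycans and elastic fibres in Sham 4 (4.88, against 4.99 to 5.002 in the other 3), macrophages and monocytes in MI_stiff 2 (4.20, against 5.36 to 5.51 in the other 3), lipid-laden and fusing macrophages in MI_stiff 2 (5.31, against 6.60 to 6.77 in the other 3), atrial myocardium in MI_stiff 1 (3.72, against 4.05 to 4.10 in the other 3) and hormone and natriuretic system in MI_stiff 2 (4.55, against 4.17 to 4.21 in the other 3). Dbp had 36.2 CPM in MI_stiff 3 and 4.4997 to 6.03 CPM in the other MI_stiff libraries and Fhl2 had 312 CPM in MI_stiff 4 and 234 to 236 CPM in the other MI_stiff libraries. Gpr22 had 8.93 CPM in MI_stiff 3 and 20.51 to 21.51 CPM in the other MI_stiff libraries and Igf1 had 53.2 CPM in MI_stiff 1 and 29.1 to 32.9 CPM in the other MI_stiff libraries. Kcnj3 had 8.57 CPM in MI_stiff 1 and 13.3 to 14.2 CPM in the other MI_stiff libraries and Mfap5 had 119 CPM in MI_stiff 3 and 192 to 200.4 CPM in the other MI_stiff libraries. Plvap had 137 CPM in MI_stiff 2 and 19.6 to 31.1 CPM in the other MI_stiff libraries and Slc16a3 had 3.22 CPM in MI_stiff 2 and 20.4 to 20.51 CPM in the other MI_stiff libraries. Slc2a4 had 149.8 CPM in MI_stiff 1 and 189.6 to 193 CPM in the other MI_stiff libraries and Tnni3 had 1099.5 CPM in MI_stiff 2 and 1915 to 2075 CPM in the other MI_stiff libraries. Acan had 0.233 CPM in Sham 1 and 0 CPM in the other Sham libraries and Adcy5 had 343 CPM in Sham 1 and 293 CPM in the other Sham libraries. Asph had 151 CPM in Sham 4 and 192 to 199.5 CPM in the other Sham libraries and Auh had 78.96 CPM in Sham 3 and 57.2 to 59.99 CPM in the other Sham libraries. Ckm had 4484 CPM in Sham 3 and 2538 to 2866 CPM in the other Sham libraries and Cst6 had 0.189 CPM in Sham 2 and 0 CPM in the other Sham libraries. Gpr22 had 221 CPM in Sham 2 and 62.996 to 77.8 CPM in the other Sham libraries and Hadh had 1299.5 CPM in Sham 2 and 826 to 865 CPM in the other Sham libraries. Icam1 had 12.5002 CPM in Sham 3 and 9.67 to 10.03 CPM in the other Sham libraries and Kcnj3 had 51.3 CPM in Sham 3 and 60.2 to 61.9 CPM in the other Sham libraries. Krt19 had 0 CPM in Sham 2 and 0.0776 to 0.0792 CPM in the other Sham libraries and Mef2d had 71.9 CPM in Sham 2 and 96.9 to 100.1 CPM in the other Sham libraries. Mthfd2 had 5.44 CPM in Sham 1 and 3.22 to 3.34 CPM in the other Sham libraries and Nppb had 104 CPM in Sham 4 and 195 to 206 CPM in the other Sham libraries. Rcor2l1 had 14.8 CPM in Sham 3 and 9.46 to 9.87 CPM in the other Sham libraries and Runx2 had 2.10 CPM in Sham 1 and 0.932 to 1.04 CPM in the other Sham libraries. Upk1b had 0.233 CPM in Sham 3 and 0 CPM in the other Sham libraries. Sham values of Acan, Cst6, Krt19 and Upk1b rest on 3 counts or fewer in all. No part of depth or tissue sampling in these values was tested.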

How the results depend on the processing

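Against Sham the calls were 1690 to 2008 when 1 library of either group was left out (1068 to 1263 higher, 604 to 745 lower), against 2410. The fit of only the 8 libraries gave 4523 (2367 higher, 2156 lower; 2348 shared with the 2410). Without the 4 libraries with the fewest genes detected, an alternative chosen after seeing the data, the calls were 4986 (2752 higher, 2234 lower; 2408 shared). On TPM 423 genes were lower with a pseudocount of 1 and 251 with 0.1. Against MI the calls were 82 (40 lower) with no filter, 13 (7 higher, 6 lower) in the fit of 8 libraries, 215 (158 lower) without the 4 libraries, 583 (305 higher, 278 lower) by DESeq2, 86 (42 lower) by limma-voom, 91 higher and 19 lower on TPM with a pseudocount of 1 and 68 (11 lower) with 0.1, and 11 to 1253 (7 to 818 higher, 4 to 435 lower) without 1 library. Against MI_soft they were 243 (91 higher, 152 lower) without the 4 libraries, 278 (93 higher, 185 lower) by DESeq2, 17 (9 lower) by limma-voom, 8 (3 higher, 5 lower) in the fit of 8 libraries, and 4 to 17 (4 to 10 higher, 0 to 8 lower) without 1 library. The cause of these differences was not tested.

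Same-numbered libraries of MI_stiff and Sham did not deviate together (correlations -0.195 to 0.026), and 0 of 4 MI_stiff libraries correlated best with its own number. The labels name no pairing, and these correlations cannot show whether same-numbered libraries shared a batch. With the replicate block the calls were 2083 against Sham, 34 (16 higher, 18 lower) against MI and 3 (3 higher, 0 lower) against MI_soft. Of 180 genes named against Sham, 150 kept their direction and side of the threshold in each of the 19 alternatives that tested them. An alternative that gave no adjusted p for a gene was judged by direction alone. Many of these genes were named because they had passed the test in the same data. The log2 difference turned sign for Myh7 with RLE size factors (-0.017), without mitochondrially encoded genes (-0.014), by DESeq2 (-0.017) and by limma-voom (-0.067), and ranged from -0.28 to 0.19 without 1 library. For Dbp it was -0.19 by limma-voom and ranged from -0.89 to 0.67, and for Acta1 from -0.0020 to 0.31. Depth limits genes with 0 to 3 Sham counts to bounds or counting intervals.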
